A study of Homo sapiens with 39 samples.

Results

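The genes described here are 57 genes of mitosis and the kinetochore, chosen by symbol as the cyclins, mitotic kinases, kinesins, spindle, kinetochore and chromosome structure genes of a processed RNA-seq table. All 57 were among its 46706 symbols and all 57 passed the expression filter (a mean of at least 1 TPM, transcripts scaled for gene length and library total, over all libraries), which left 14404 symbols to test. Their genes are protein-coding and lie on 20 chromosomes in GENCODE v29. The choice of symbols used no measured value of a contrast, but the list was drawn up with earlier results of these data known.

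RNA was sequenced from HCC1428-LTED, a human breast cancer cell line that carries the estrogen receptor and has been kept without estrogen for long enough to grow in its absence. Every culture was grown in IMEM with 5% charcoal-stripped serum, which is depleted of steroids, and was treated for 24 h. The ligand groups were fulvestrant, SAR439859, the hybrid GDC-SAR, the hybrid AZD-SAR, GDC-0810 and AZD9496, each at 30 nM and at 300 nM, and the remaining group received the vehicle DMSO. GDC-SAR carries the SAR439859 side chain on the GDC-0810 scaffold, and AZD-SAR carries it on the AZD9496 scaffold. All 6 ligands bind the estrogen receptor, and fulvestrant is a degrader of it in clinical use. The labels give 3 libraries in each of the 13 groups, 39 in all, while the series text speaks of duplicates. Nothing in the labels says that the 3 came from separate cultures, so p-values measure only the spread between these libraries, which may be technical. A single estrogen-deprived line was used, with no estrogen-treated group and no untreated parental line among the groups.

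Cells enter mitosis when CDK1, bound to a cyclin B, is freed of its inhibitory phosphates by the CDC25 phosphatases. The kinetochore, a protein assembly on the centromere, then attaches each chromosome to spindle microtubules, while the spindle checkpoint holds the cell until every chromosome is attached. The anaphase-promoting complex with CDC20 then marks securin and the B cyclins for destruction, and the sister chromatids part. Transcripts of these genes accumulate in the later part of the cell cycle, and many are driven by FOXM1 and by complexes that contain MYBL2 and bind the cell cycle element named CHR. In estrogen receptor-positive breast cancer cells estrogen drives entry into the cell cycle, and ligands that block or degrade the receptor are known to reduce it. In bulk RNA, fewer cells in mitosis and less of a transcript in each cell cannot be told apart, and this holds for every level given here.

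The 250 bases before each listed RefSeq gene start (build GRCh38.p14) could be read for 49 of the 57 genes. Where a gene had more than 1 listed start, a match before any of them was counted. The letters TTTGAA, the core of the CHR element, stood there on either strand in 25 of the 49 (51.02%), against 16.05% of 27305 genes. CCAAT, the box bound by NF-Y, stood in 39 (79.59%), against 37.0%. 1 of 4 E2F-type spellings (TTCCCGC or TTGGCGC or TTCGCGC or TTGCCGC) stood in 13 (26.53%), against 12.97%. Among the 26 readable genes that were called lower in the average of all ligand groups against DMSO, TTTGAA was present in 12, CCAAT in 21 and an E2F-type spelling in 8. Among the 23 that were not called, the counts were 13, 18 and 5. A match is a description of the letters and not evidence of a bound factor.

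The last 150 bases before the most upstream listed start are printed for 6 genes. They are shown because they span the range of responses and because no gene of GENCODE v29 is annotated in the stretch. Each stretch thus lies outside exons and introns. CDK1 has 2 listed starts, and the TTTGAA counted for it is not in its printed stretch. CDK1 (chr10:60778181-60778330, plus strand) and CDC25A (chr3:48188418-48188567, minus strand) were among the genes with the largest decreases. ESPL1 (chr12:53268149-53268298, plus strand) and KIF11 (chr10:92592980-92593129, plus strand) fell by less, and MKI67 (chr10:128126424-128126573, minus strand) and KIF14 (chr1:200620752-200620901, minus strand) were not called in the average. Each runs 5′ to 3′ on the strand of its gene, from RefSeq, and capitals mark the letters TTTGAA or CCAAT and the E2F-type letters or their reverse complements.
CDK1: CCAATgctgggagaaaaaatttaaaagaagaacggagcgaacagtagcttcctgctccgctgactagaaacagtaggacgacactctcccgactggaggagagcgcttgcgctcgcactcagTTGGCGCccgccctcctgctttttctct
CDC25A: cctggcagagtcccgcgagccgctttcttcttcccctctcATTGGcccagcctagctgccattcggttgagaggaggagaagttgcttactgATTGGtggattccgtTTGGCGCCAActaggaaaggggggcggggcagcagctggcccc
ESPL1: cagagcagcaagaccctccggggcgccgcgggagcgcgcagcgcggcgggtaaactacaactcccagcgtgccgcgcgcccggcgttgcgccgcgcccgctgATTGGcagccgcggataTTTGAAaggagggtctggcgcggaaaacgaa
KIF11: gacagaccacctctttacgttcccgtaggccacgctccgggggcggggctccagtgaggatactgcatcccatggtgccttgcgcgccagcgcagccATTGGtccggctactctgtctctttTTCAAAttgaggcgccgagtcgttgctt
MKI67: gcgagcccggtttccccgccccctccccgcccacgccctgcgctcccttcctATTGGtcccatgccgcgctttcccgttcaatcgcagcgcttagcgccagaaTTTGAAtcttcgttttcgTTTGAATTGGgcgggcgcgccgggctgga
KIF14: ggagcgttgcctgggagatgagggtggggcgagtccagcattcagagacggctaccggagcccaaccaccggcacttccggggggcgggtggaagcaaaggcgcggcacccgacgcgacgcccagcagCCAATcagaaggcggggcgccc
CDK1 and CDC25A hold E2F-type letters close to the start, and the marked E2F-type run of CDC25A is a pair of overlapping matches, 1 on each strand. ESPL1, KIF11 and MKI67 hold TTTGAA or its complement there, MKI67 at 2 places, and its TTTGAA nearer the start overlaps a CCAAT match. KIF14 holds a CCAAT match and neither of the others.

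The deposited table gives TPM only, so sequencing depth is unknown. Libraries listed 15818 to 26756 symbols above 0, the fewest in SAR439859 30 nM replicate 3, which also held the only 0 among the mitosis genes, at CDC25A. The luminal breast markers ESR1, GATA3, FOXA1, KRT8, KRT18, KRT19 and EPCAM were high in all 39 libraries, with a lowest value of 53.5 TPM (EPCAM). Some of them differed between ligand and DMSO libraries. GATA3 ran from 1392 to 7036 TPM in the ligand libraries, against 981 to 1308 TPM in DMSO, and FOXA1 from 421 to 868 TPM in the ligand libraries, against 301 to 329 TPM in DMSO, both without overlap, while the ranges of the other 5 overlapped. The basal, mesenchymal, immune and endothelial markers stayed at or below 3.11 TPM, while the stromal marker COL1A1 stood between 9.18 and 17.8 TPM in the ligand libraries, against 7.32 to 9.21 TPM in DMSO. The part of these differences in the results below was not tested. DMSO replicate 2 shares its index with AZD9496 300 nM replicate 3, and DMSO replicate 3 with AZD-SAR 300 nM replicate 3, so those libraries could not have been separated in 1 pool by the index given. No pool is labelled, and where the pool differs between DMSO and ligand libraries its effect and that of the vehicle cannot be told apart.

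Most mitosis genes were lower after ligand treatment, and no gene of the 57 was called higher by any ligand in the model used here. Summed over the 57 genes, the level was 1419 to 2283 TPM in the 36 ligand libraries, against 2609 to 2659.5 TPM in the 3 DMSO libraries, with no overlap. With the 12 ligand groups averaged, 30 of the 57 were called lower than DMSO and 0 higher, against a background of 13.3% of all tested symbols called lower. A call is an adjusted p below 0.05 in limma's moderated test on log2(TPM + 1), with Benjamini-Hochberg adjustment over all 14404 symbols. Every difference given below is on that log2 scale and is ligand minus DMSO unless 2 ligands are named, and a positive value means higher in the group named first. The median difference was -0.45 over the 57 genes, against 0.08 over all tested symbols. The sizes ran from -1.91 for CDK1 to 0.31 for CCNB1. There were 9 genes below -1, all called, while 16 genes lay between -0.25 and 0 and 4 above 0, none of them called. With TPM rescaled by median-of-ratios factors, which brings the median symbol close to 0, 37 were called lower. The 7 added were PLK1, NEK2, KIF4A, CENPA, CENPF, ASPM and MKI67. No share of all symbols called after rescaling is given, here or below, so rescaled counts lack a background. Without each DMSO library in turn the count was 23 to 26, and 23 genes were called whichever DMSO library was left out. The calls that did not survive were those of CCNA2, CDC25C, PLK4, CENPM, NDC80, NUSAP1 and KIF20A, whose highest adjusted p without 1 DMSO library ran from 0.0648 to 0.306.

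**Figure D1:**
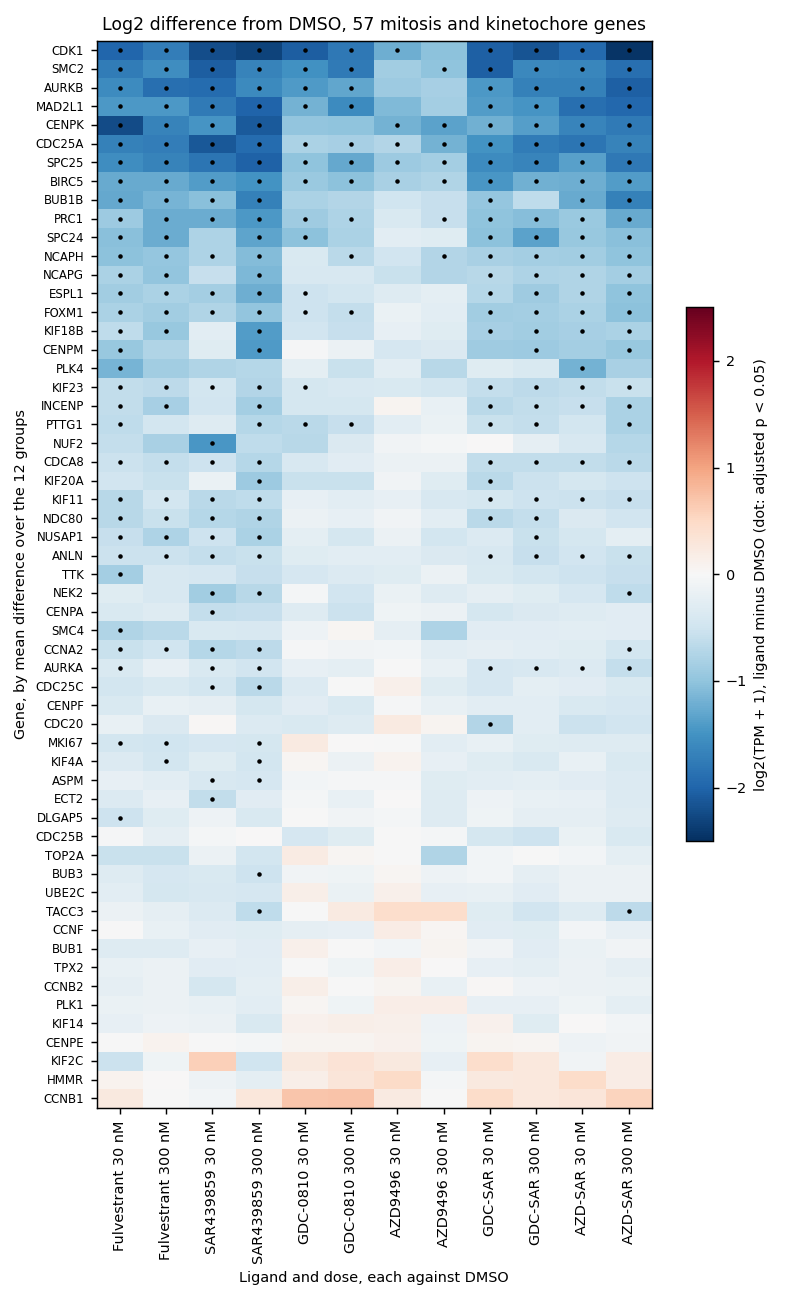
Log2 difference from DMSO (log2(TPM + 1), colour scale) of each of the 57 mitosis and kinetochore genes (rows, ordered by their mean difference) in the 12 ligand and dose groups (columns), with a dot where limma's adjusted p was below 0.05. The darkest rows are CDK1, SMC2, AURKB and MAD2L1 at the top, the palest columns are those of AZD9496, and the rows of CCNB1, HMMR and KIF2C at the bottom hold no dot.

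The number of mitosis genes called lower differed between ligands. SAR439859 lowered 27 at 30 nM and 35 at 300 nM, where the background over all tested symbols was 10.2% and 12.8%. Fulvestrant lowered 32 at 30 nM and 26 at 300 nM (background 7.82% and 8.12%). Among the hybrids, GDC-SAR lowered 26 at 30 nM and 25 at 300 nM (background 11.1% and 10.5%), and AZD-SAR lowered 23 at 30 nM and 27 at 300 nM (background 8.66% and 12.8%). Their parents had smaller counts, with 13 at 30 nM and 11 at 300 nM for GDC-0810 (background 8.83% and 9.04%) and 5 at 30 nM and 7 at 300 nM for AZD9496 (background 2.05% and 2.21%). At 300 nM the median differences over the 57 genes were -0.64 for SAR439859, -0.55 for AZD-SAR, -0.50 for fulvestrant, -0.46 for GDC-SAR, -0.31 for GDC-0810 and -0.27 for AZD9496. These comparisons share the 3 DMSO libraries. The order of the parents rests on the scaling. All tested symbols had a median difference of 0.18 at 30 nM and 0.10 at 300 nM AZD9496, and after rescaling 15 and 17 mitosis genes were called lower, as were 17 and 14 with 30 and 300 nM GDC-0810. The rescaled medians over the 57 genes at 300 nM were -0.30 for GDC-0810 and -0.38 for AZD9496. Rescaled counts for the other 4 ligands ran from 26 to 39. The background shares above hold for values as deposited, so a rise in count after rescaling is not read as particular to these genes. Leaving out single libraries gave 2 to 4 at 30 nM and 3 to 7 at 300 nM for AZD9496, the lowest without DMSO replicate 3 at 30 nM and, at 300 nM, without AZD9496 replicate 3 or either of DMSO replicates 1 and 3. The count for GDC-0810 fell to 8 at 30 nM and to 7 at 300 nM without its replicate 1. That for 30 nM fulvestrant was 21 to 25 without any 1 library, against 32 with all, and lowest without its replicate 2. With only the libraries compared in the fit, SAR439859 at 30 nM lowered 11. The moderated F test across the 6 ligands, each averaged over its doses, called 31 of the 57 genes different, against 21.3% of all symbols.

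**Figure D2:**
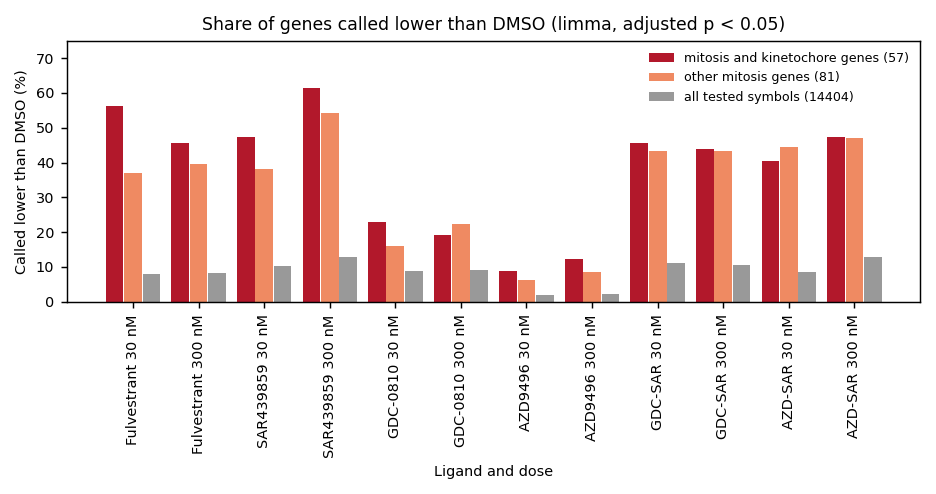
Share of genes called lower than DMSO (percent, adjusted p below 0.05) for each ligand and dose, among the 57 mitosis and kinetochore genes, 81 other mitosis genes and all 14404 tested symbols. In each of the 12 groups the bar of the 57 genes stands above the bar of all symbols, and the lowest bars are those of AZD9496.

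Across the 12 single comparisons with DMSO there were 257 calls, all lower, of which 172 held whichever 1 library of the comparison was left out. CDC25A, SPC25 and BIRC5 were called lower in all 12. CDK1, SMC2 and PRC1 were called in 11, and AURKB, MAD2L1, CENPK, NCAPH and FOXM1 in 10. There were 14 genes with no call in any of the 12, namely CCNB1, CCNB2, CCNF, CDC25B, PLK1, BUB1, KIF2C, KIF14, CENPE, CENPF, TPX2, HMMR, UBE2C and TOP2A. With rescaled values PLK1 was called lower in 6 of 12, CENPF in 4 and UBE2C in 3. Backgrounds for the single comparisons as deposited are given above. How many of all symbols were called in all 12, in 10 or more or in none is not given.

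CDK1, the kinase that drives entry into mitosis, had the largest average decrease on the log2(TPM + 1) scale. The added 1 makes differences smaller for genes of few TPM, such as CDC25A, so the order of sizes holds for that scale only. CDC25A had a median of 1.19 TPM in the ligand libraries, against 6.39 TPM in DMSO. CDK1 had 63.6, 92.3 and 94.1 TPM with 30 nM fulvestrant and 68.5, 80.2 and 172 with 300 nM, and 96.4, 87.5 and 40.8 TPM with 30 nM SAR439859 and 47.3, 75.1 and 77.7 with 300 nM. The hybrids gave CDK1 levels of 77.8, 89.1 and 73.1 TPM with 30 nM GDC-SAR and 68.4, 65.1 and 87.8 with 300 nM, and 79.2, 83.6 and 91.6 TPM with 30 nM AZD-SAR and 68.5, 36.98 and 83.03 with 300 nM. The parents gave CDK1 levels of 48.6, 93.6 and 104 TPM with 30 nM GDC-0810 and 66.7, 104 and 124 with 300 nM, and 106, 192 and 139 TPM with 30 nM AZD9496 and 124, 199 and 170.4 with 300 nM. In DMSO, CDK1 had 286, 366 and 342 TPM, so that 36 of the 36 ligand libraries lay below all 3 DMSO libraries. No ligand library reached the DMSO range, the highest being a library of 300 nM AZD9496 and the lowest 1 of 300 nM AZD-SAR. CDK1 differed on average by -1.91 ± 0.25 (SE), adjusted p = 8.62e-07 with limma.

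Its partner CCNB1 (cyclin B1) was not called in any comparison with DMSO. CCNB1 had 90.7, 53.5 and 62.8 TPM with 30 nM fulvestrant and 69.6, 59.2 and 42.6 with 300 nM, and 69.6, 54.7 and 41.3 TPM with 30 nM SAR439859 and 84.5, 83.7 and 46.6 with 300 nM. The hybrids gave CCNB1 levels of 88.6, 68.6 and 79.9 TPM with 30 nM GDC-SAR and 68.1, 90.2 and 52.1 with 300 nM, and 85.8, 68.8 and 57.2 TPM with 30 nM AZD-SAR and 122, 96.6 and 49.9 with 300 nM. The parents gave CCNB1 levels of 137, 93.1 and 62.2 TPM with 30 nM GDC-0810 and 135, 85.3 and 72.01 with 300 nM, and 84.5, 61.2 and 56.8 TPM with 30 nM AZD9496 and 65.5, 56.9 and 47.7 with 300 nM. In DMSO, CCNB1 had 53.9, 58.5 and 57.6 TPM, so that 7 of the 36 ligand libraries lay below all 3 DMSO libraries and 25 above them. The spread within groups was wide, above all for GDC-0810 and for AZD-SAR at 300 nM, and in 12 of the 12 ligand groups the library listed first lay above the library listed last. CCNB1 differed on average by 0.31 ± 0.23 (SE), adjusted p = 0.324. CCNB2 (cyclin B2) had the smallest average difference of the cyclin and CDC25 genes, at -0.12 ± 0.12 (SE), adjusted p = 0.4796. CCNA2 (cyclin A2) fell by 0.34 (adjusted p = 0.0334), a call lost without any 1 of the 3 DMSO libraries, while CCNF (cyclin F) stood at -0.15 (adjusted p = 0.403).

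The 3 CDC25 phosphatases, which remove inhibitory phosphates from cyclin-dependent kinases, did not share the same size of change. CDC25A, which acts also at the start of DNA replication, fell by 1.48 (SE 0.15, adjusted p = 9.56e-09), with 12 calls in 12 comparisons. CDC25C, the mitotic form, fell by 0.32 (adjusted p = 0.0482), and CDC25B stood at -0.22 (adjusted p = 0.3498). Of the 8 genes of this role, 4 were called lower in the average. Differences between genes were not tested against each other.

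Of the 5 mitotic kinases, 3 were called lower as deposited and all 5 after rescaling. AURKB, the kinase of the chromosomal passenger complex, had the largest decrease. AURKB had 11.2, 18.8 and 15.6 TPM with 30 nM fulvestrant and 9.12, 12.9 and 13.7 with 300 nM, and 9.05, 15.5 and 10.7 TPM with 30 nM SAR439859 and 25.001, 12.7 and 9.73 with 300 nM. The hybrids gave AURKB levels of 15.6, 15.2 and 18.98 TPM with 30 nM GDC-SAR and 9.52, 14.1 and 18.3 with 300 nM, and 10.4, 12.3 and 19.7 TPM with 30 nM AZD-SAR and 9.01, 15.9 and 7.91 with 300 nM. The parents gave AURKB levels of 13.9, 20.6 and 16.2 TPM with 30 nM GDC-0810 and 13.4, 26.1 and 16.9 with 300 nM, and 15.3, 27.7 and 32.2 TPM with 30 nM AZD9496 and 19.8, 26.5 and 31.4 with 300 nM. In DMSO, AURKB had 51.6, 43.1 and 44.02 TPM, so that 36 of the 36 ligand libraries lay below all 3 DMSO libraries. AZD9496 again gave the highest ligand levels as deposited, while its rescaled difference from GDC-0810 over both doses was 0.33 (adjusted p = 0.371). AURKB differed on average by -1.52 ± 0.23 (SE), adjusted p = 1.01e-05. AURKA, which acts at centrosomes and the spindle, fell by 0.32 (adjusted p = 0.000955), and PLK4, the kinase of centriole duplication, fell by 0.66 (adjusted p = 0.0357). NEK2, a centrosome kinase, stood at -0.41 (adjusted p = 0.0744) and was called lower after rescaling (adjusted p = 0.0342).

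PLK1, a kinase needed from mitotic entry to cytokinesis, had the smallest average difference among the kinases. PLK1 had 43.3, 42.2 and 39.4 TPM with 30 nM fulvestrant and 44.9, 38.9 and 42.7 with 300 nM, and 47.6, 40.2 and 35.8 TPM with 30 nM SAR439859 and 39.4, 40.4 and 37.9 with 300 nM. The hybrids gave PLK1 levels of 39.9, 43.1 and 39.6 TPM with 30 nM GDC-SAR and 39.3, 43.4 and 39.8 with 300 nM, and 44.9, 42.3 and 42.8 TPM with 30 nM AZD-SAR and 34.01, 43.4 and 42.4 with 300 nM. The parents gave PLK1 levels of 45.6, 53.8 and 47.05 TPM with 30 nM GDC-0810 and 39.3, 43.7 and 48.8 with 300 nM, and 55.7, 46.99 and 55.9 TPM with 30 nM AZD9496 and 60.4, 52.2 and 47.1 with 300 nM. In DMSO, PLK1 had 45.9, 46.9 and 48.2 TPM, so that 26 of the 36 ligand libraries lay below all 3 DMSO libraries and 6 above them. Ligand and DMSO libraries overlapped, with the parents GDC-0810 and AZD9496 reaching the highest values. PLK1 differed on average by -0.10 ± 0.08 (SE), adjusted p = 0.352, while the rescaled values gave -0.17 with an adjusted p of 0.0297 and hence a call.

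In the spindle checkpoint, MAD2L1 and BUB1B, which together hold CDC20 in check, were called lower, and BUB1, BUB3 and TTK were not. MAD2L1 had 8.53, 12.3 and 16.6 TPM with 30 nM fulvestrant and 8.798, 10.03 and 19.7 with 300 nM, and 6.81, 10.002 and 11.996 TPM with 30 nM SAR439859 and 6.87, 5.35 and 12.5 with 300 nM. The hybrids gave MAD2L1 levels of 13.1, 15.8 and 9.09 TPM with 30 nM GDC-SAR and 9.27, 11.5 and 14.9 with 300 nM, and 10.1, 6.41 and 9.35 TPM with 30 nM AZD-SAR and 14.9, 4.09 and 8.04 with 300 nM. The parents gave MAD2L1 levels of 9.398, 15.1 and 20.9 TPM with 30 nM GDC-0810 and 5.97, 13.6 and 15.5 with 300 nM, and 15.3, 17.1 and 14.1 TPM with 30 nM AZD9496 and 17.2, 24.7 and 14.8 with 300 nM. In DMSO, MAD2L1 had 23.9, 40.4 and 41.1 TPM, so that 35 of the 36 ligand libraries lay below all 3 DMSO libraries. The lowest DMSO library was replicate 1, and 1 library of 300 nM AZD9496 lay above it. MAD2L1 differed on average by -1.50 ± 0.28 (SE), adjusted p = 0.000121. BUB1B fell by 1.03 (adjusted p = 0.00259). The kinase BUB1 had the smallest difference of the 5, at -0.14 ± 0.13 (SE), adjusted p = 0.439. The kinase TTK stood at -0.45 (adjusted p = 0.114) and BUB3 at -0.21 (adjusted p = 0.161).

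All 3 genes of the chromosomal passengers, the partners of AURKB that carry it to centromeres and then to the spindle midzone, were called lower. BIRC5 (survivin) was called in all 12 comparisons. BIRC5 had 46.6, 38.8 and 44.9 TPM with 30 nM fulvestrant and 45.5, 33.3 and 52.8 with 300 nM, and 41.7, 36.1 and 39.5 TPM with 30 nM SAR439859 and 35.3, 32.6 and 41.9 with 300 nM. The hybrids gave BIRC5 levels of 35.9, 41.5 and 34.8 TPM with 30 nM GDC-SAR and 43.8, 39.9 and 51.5 with 300 nM, and 39.4, 44.4 and 50.7 TPM with 30 nM AZD-SAR and 33.996, 35.2 and 49.9 with 300 nM. The parents gave BIRC5 levels of 56.7, 54.2 and 51.8 TPM with 30 nM GDC-0810 and 47.5, 51.9 and 53.6 with 300 nM, and 53.8, 59.8 and 63.9 TPM with 30 nM AZD9496 and 55.3, 69.2 and 62.3 with 300 nM. In DMSO, BIRC5 had 101, 116 and 97.8 TPM, so that 36 of the 36 ligand libraries lay below all 3 DMSO libraries. The AZD9496 libraries were among the highest of the ligand libraries as deposited, and none reached the lowest DMSO value. The rescaled difference of AZD9496 from GDC-0810 over both doses was 0.04 (adjusted p = 0.826). BIRC5 differed on average by -1.19 ± 0.11 (SE), adjusted p = 1.14e-09, the smallest adjusted p of the 57 genes in this comparison. The scaffold protein INCENP fell by 0.53 (adjusted p = 0.00371), and CDCA8 (borealin) had the smallest change, a fall by 0.49 (adjusted p = 0.00217). INCENP was called with 7 and CDCA8 with 8 of the 12 ligand and dose groups.

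Of the 7 kinesins, motors that move along or take apart microtubules, 4 were called lower. KIF18B, which works at the tips of astral microtubules, had the largest decrease. KIF18B had 12.3, 12.2 and 9.83 TPM with 30 nM fulvestrant and 9.23, 7.06 and 11.2 with 300 nM, and 17.6, 10.2 and 19.2 TPM with 30 nM SAR439859 and 4.95, 7.45 and 6.96 with 300 nM. The hybrids gave KIF18B levels of 7.37, 12.8 and 10.1 TPM with 30 nM GDC-SAR and 9.01, 7.999 and 12.3 with 300 nM, and 8.91, 10.7 and 10.3 TPM with 30 nM AZD-SAR and 6.95, 11.7 and 12.7 with 300 nM. The parents gave KIF18B levels of 10.95, 12.3 and 15.6 TPM with 30 nM GDC-0810 and 12.2, 11.6 and 12.2 with 300 nM, and 14.4, 14.5 and 19.1 TPM with 30 nM AZD9496 and 13.4, 14.4 and 16.3 with 300 nM. In DMSO, KIF18B had 15.5, 19.03 and 20.8 TPM, so that 31 of the 36 ligand libraries lay below all 3 DMSO libraries. The highest ligand libraries overlapped the DMSO range, and SAR439859 at 300 nM gave the lowest levels. KIF18B differed on average by -0.68 ± 0.16 (SE), adjusted p = 0.00205. KIF23, a motor of the central spindle, fell by 0.55 (adjusted p = 0.000172), and KIF20A, another motor of the central spindle, by 0.48 (adjusted p = 0.0148). KIF11, the motor that pushes spindle poles apart, fell by 0.47 (adjusted p = 0.000265). The chromokinesin KIF4A stood at -0.25 (adjusted p = 0.0977) and the cytokinesis motor KIF14 at -0.07 (adjusted p = 0.676). KIF4A was called lower after rescaling (adjusted p = 0.0209). KIF2C, a microtubule depolymerase of the centromere, had the smallest difference, at 0.07 ± 0.22 (SE), adjusted p = 0.835, and its 12 group differences ran from -0.54 to 0.60.

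Of the 9 centromere and kinetochore genes, 5 were called lower in the average. CENPK, a subunit of the inner kinetochore network on the centromere, had the largest decrease. CENPK had 6.17, 9.53 and 2.69 TPM with 30 nM fulvestrant and 6.01, 8.45 and 12.3 with 300 nM, and 12.4, 8.75 and 9.21 TPM with 30 nM SAR439859 and 11.3, 5.19 and 3.73 with 300 nM. The hybrids gave CENPK levels of 13.7, 12.5 and 10.9 TPM with 30 nM GDC-SAR and 10.2, 8.89 and 13.6 with 300 nM, and 13.4, 9.15 and 5.29 TPM with 30 nM AZD-SAR and 6.33, 4.74 and 16.1 with 300 nM. The parents gave CENPK levels of 19.04, 14.002 and 11.4 TPM with 30 nM GDC-0810 and 16.9, 9.75 and 17.5 with 300 nM, and 12.2, 13.1 and 12.5 TPM with 30 nM AZD9496 and 11.03, 14.6 and 8.495 with 300 nM. In DMSO, CENPK had 29.4, 30.7 and 28.8 TPM, so that 36 of the 36 ligand libraries lay below all 3 DMSO libraries. The highest ligand value was that of a library of 30 nM GDC-0810, well under the DMSO range. CENPK differed on average by -1.50 ± 0.27 (SE), adjusted p = 9.88e-05. CENPM, of the same inner network, fell by 0.66 (adjusted p = 0.0371), a call lost without 1 DMSO library. CENPA, the histone H3 variant that marks centromeres, stood at -0.37 (adjusted p = 0.0899) and CENPF, a protein of the outer corona, at -0.29 (adjusted p = 0.0961). Both were called lower after rescaling, with an adjusted p of 0.035 for CENPA and 0.0216 for CENPF. The kinetochore motor CENPE had the smallest difference, at 0.01 ± 0.11 (SE), adjusted p = 0.973.

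The 4 subunits of the NDC80 complex, which binds the microtubule at the outer kinetochore, averaged from -1.46 to -0.46. The proteins act as 1 assembly, and differences between the subunits were not tested. SPC25 was called in all 12 comparisons and averaged -1.46 ± 0.14 (SE), adjusted p = 1.77e-09. SPC24, its direct partner, averaged -0.93 ± 0.24 (SE), adjusted p = 0.00323 with 8 calls. NDC80, the subunit at the microtubule end, averaged -0.46 ± 0.14 (SE), adjusted p = 0.0162 with 6 calls. NUF2, the partner of NDC80, averaged -0.50 ± 0.22 (SE), adjusted p = 0.0901 and was called only with SAR439859 at 30 nM. Its DMSO libraries ran from 17.3 to 38.7 TPM. Leaving out 1 DMSO library moved the adjusted p of its average between 0.0222 and 0.508, the highest without DMSO replicate 1.

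**Figure D3:**
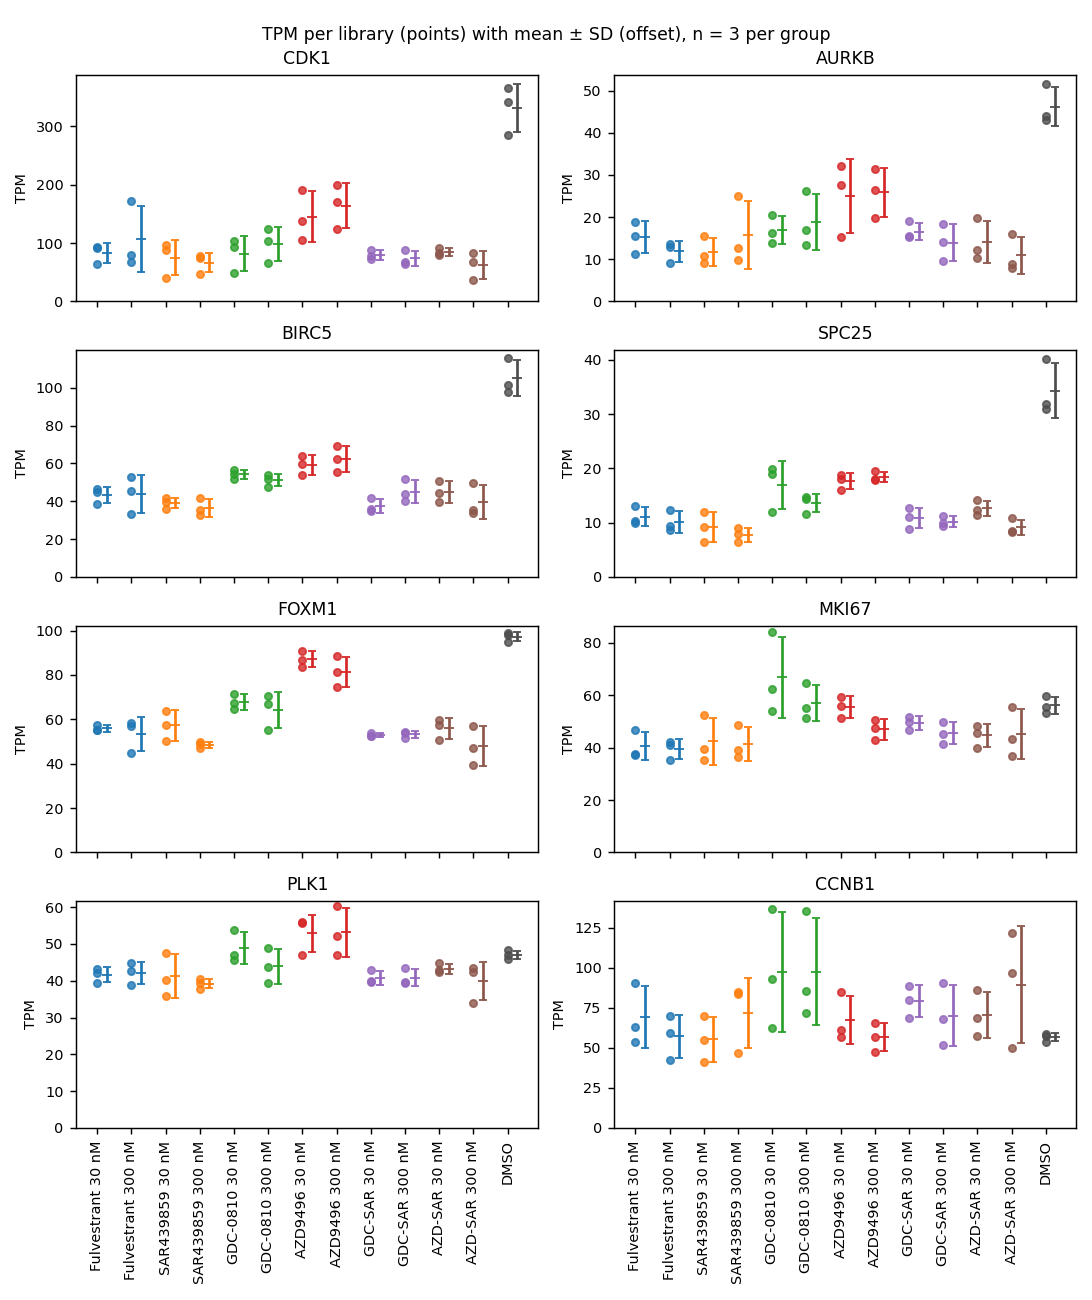
TPM in every library (points) with the group mean ± SD (bars beside them, n = 3) for CDK1, AURKB, BIRC5, SPC25, FOXM1, MKI67, PLK1 and CCNB1, in the 12 ligand and dose groups and DMSO at the right. CDK1, AURKB, BIRC5, SPC25 and FOXM1 stand highest in DMSO, while the DMSO points of PLK1, MKI67 and CCNB1 lie within the span of the ligand points.

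Spindle assembly genes held 1 call among 6. It was NUSAP1, a microtubule-binding protein of the spindle. NUSAP1 had 42.4, 25.9 and 33.98 TPM with 30 nM fulvestrant and 29.7, 29.2 and 27.3 with 300 nM, and 48.3, 26.2 and 33.3 TPM with 30 nM SAR439859 and 30.9, 26.9 and 27.7 with 300 nM. The hybrids gave NUSAP1 levels of 43.001, 38.4 and 36.8 TPM with 30 nM GDC-SAR and 37.4, 35.7 and 28.7 with 300 nM, and 44.2, 33.05 and 34.3 TPM with 30 nM AZD-SAR and 51.2, 42.03 and 34.4 with 300 nM. The parents gave NUSAP1 levels of 47.6, 41.4 and 38.4 TPM with 30 nM GDC-0810 and 40.4, 33.0 and 37.2 with 300 nM, and 54.2, 40.7 and 41.4 TPM with 30 nM AZD9496 and 41.9, 36.9 and 31.1 with 300 nM. In DMSO, NUSAP1 had 52.7, 52.1 and 45.7 TPM, so that 32 of the 36 ligand libraries lay below all 3 DMSO libraries and 1 above them. Single libraries of 30 nM SAR439859, 30 nM GDC-0810, 30 nM AZD9496 and 300 nM AZD-SAR reached the DMSO range. NUSAP1 differed on average by -0.46 ± 0.13 (SE), adjusted p = 0.00933, and the adjusted p was 0.0622 without DMSO replicate 1 and 0.0648 without DMSO replicate 2. TPX2, the activator of AURKA on the spindle, had the smallest difference, at -0.14 ± 0.10 (SE), adjusted p = 0.313. HMMR stood at 0.15 (adjusted p = 0.471), DLGAP5 at -0.23 (adjusted p = 0.162) and ASPM, a protein of the spindle poles, at -0.24 (adjusted p = 0.0754). ASPM was called lower after rescaling (adjusted p = 0.0243). TACC3, which stabilises spindle microtubules, averaged -0.17 (adjusted p = 0.434), with group differences from -0.66 to 0.45, and it was called in the F test across ligands (adjusted p = 6.74e-05).

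Of the 3 genes of the midzone and cytokinesis, 2 were called lower. PRC1, the protein that bundles the microtubules of the central spindle, had the largest decrease. PRC1 had 47.4, 57.5 and 67.5 TPM with 30 nM fulvestrant and 49.02, 42.4 and 43.3 with 300 nM, and 63.6, 40.8 and 35.1 TPM with 30 nM SAR439859 and 31.8, 42.3 and 44.4 with 300 nM. The hybrids gave PRC1 levels of 49.4, 53.8 and 56.4 TPM with 30 nM GDC-SAR and 50.6, 50.98 and 50.9 with 300 nM, and 54.7, 53.7 and 60.1 TPM with 30 nM AZD-SAR and 41.7, 46.6 and 45.8 with 300 nM. The parents gave PRC1 levels of 45.9, 59.4 and 69.9 TPM with 30 nM GDC-0810 and 61.6, 58.6 and 67.7 with 300 nM, and 83.9, 81.01 and 83.1 TPM with 30 nM AZD9496 and 69.2, 85.6 and 61.95 with 300 nM. In DMSO, PRC1 had 111, 108 and 104 TPM, so that 36 of the 36 ligand libraries lay below all 3 DMSO libraries. Levels as deposited were highest with AZD9496 and lowest with SAR439859 at 300 nM. The rescaled difference of AZD9496 from GDC-0810 over both doses was 0.19 (adjusted p = 0.215). PRC1 differed on average by -0.98 ± 0.12 (SE), adjusted p = 2.46e-07. ANLN (anillin), which organises the contractile ring, fell by 0.45 (adjusted p = 0.00036). ECT2, the exchange factor that switches on RhoA at the division site, had the smallest difference, at -0.24 ± 0.13 (SE), adjusted p = 0.187.

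Among the 4 anaphase genes, 2 were called lower, and both act at the step that frees the sister chromatids. ESPL1 (separase) is the protease that cuts cohesin. ESPL1 had 5.11, 5.48 and 4.91 TPM with 30 nM fulvestrant and 5.38, 4.91 and 6.51 with 300 nM, and 6.56, 3.51 and 6.39 TPM with 30 nM SAR439859 and 3.68, 4.01 and 3.94 with 300 nM. The hybrids gave ESPL1 levels of 4.78, 7.47 and 5.74 TPM with 30 nM GDC-SAR and 5.38, 4.097 and 6.09 with 300 nM, and 5.64, 5.64 and 6.01 TPM with 30 nM AZD-SAR and 3.51, 4.12 and 6.73 with 300 nM. The parents gave ESPL1 levels of 6.64, 7.77 and 6.24 TPM with 30 nM GDC-0810 and 6.59, 8.34 and 6.86 with 300 nM, and 7.11, 8.02 and 9.23 TPM with 30 nM AZD9496 and 8.27, 8.43 and 9.05 with 300 nM. In DMSO, ESPL1 had 12.1, 9.13 and 9.93 TPM, so that 35 of the 36 ligand libraries lay below all 3 DMSO libraries. The AZD9496 libraries came closest to the DMSO range as deposited, while the rescaled difference of AZD9496 from GDC-0810 over both doses was 0.07 (adjusted p = 0.747). ESPL1 differed on average by -0.72 ± 0.14 (SE), adjusted p = 0.00017. PTTG1 (securin), its inhibitor, fell by 0.52 (adjusted p = 0.00178). The anaphase-promoting complex activator CDC20 stood at -0.27 (adjusted p = 0.303), and its ubiquitin-conjugating enzyme UBE2C had the smallest difference, at -0.20 ± 0.12 (SE), adjusted p = 0.229.

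Of the chromosome structure and proliferation genes, 3 of 6 were called lower. SMC2, a core subunit of condensin, had the largest decrease. SMC2 had 7.399, 5.62 and 9.62 TPM with 30 nM fulvestrant and 12.8, 6.94 and 7.03 with 300 nM, and 6.22, 7.7004 and 3.91 TPM with 30 nM SAR439859 and 5.01, 7.19 and 12.8 with 300 nM. The hybrids gave SMC2 levels of 6.11, 6.89 and 4.71 TPM with 30 nM GDC-SAR and 8.35, 8.39 and 7.96 with 300 nM, and 7.39, 7.11 and 10.1 TPM with 30 nM AZD-SAR and 4.55, 6.16 and 10.3 with 300 nM. The parents gave SMC2 levels of 9.01, 9.24 and 8.29 TPM with 30 nM GDC-0810 and 6.03, 5.13 and 11.9 with 300 nM, and 11.4, 16.7 and 15.5 TPM with 30 nM AZD9496 and 9.48, 18.2 and 12.9 with 300 nM. In DMSO, SMC2 had 23.5, 28.2 and 30.02 TPM, so that 36 of the 36 ligand libraries lay below all 3 DMSO libraries. AZD9496 gave the highest ligand levels as deposited, while its rescaled difference from GDC-0810 over both doses was 0.56 (adjusted p = 0.0768). SMC2 differed on average by -1.61 ± 0.22 (SE), adjusted p = 1.64e-06. SMC4, with which SMC2 pairs in condensin, stood at -0.37 ± 0.19 (SE), adjusted p = 0.141. The condensin subunits NCAPH and NCAPG fell by 0.80 (adjusted p = 5.03e-05) and 0.72 (adjusted p = 0.00216).

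TOP2A, the topoisomerase that untangles mitotic chromosomes, was not called in any comparison with DMSO. TOP2A had 50.3, 27.1 and 28.01 TPM with 30 nM fulvestrant and 49.6, 31.3 and 24.1 with 300 nM, and 53.1, 31.3 and 54.7 TPM with 30 nM SAR439859 and 56.002, 32.2 and 25.96 with 300 nM. The hybrids gave TOP2A levels of 41.95, 59.2 and 43.8 TPM with 30 nM GDC-SAR and 43.997, 62.6 and 43.7 with 300 nM, and 56.4, 47.1 and 39.6 TPM with 30 nM AZD-SAR and 41.7, 48.8 and 35.3 with 300 nM. The parents gave TOP2A levels of 72.5, 53.5 and 48.7 TPM with 30 nM GDC-0810 and 48.3, 52.8 and 53.5 with 300 nM, and 59.3, 40.2 and 50.5 TPM with 30 nM AZD9496 and 31.3, 33.2 and 24.01 with 300 nM. In DMSO, TOP2A had 53.4, 43.8 and 52.7 TPM, so that 16 of the 36 ligand libraries lay below all 3 DMSO libraries and 9 above them. The libraries of most groups spread over a wide range that took in the DMSO values. TOP2A differed on average by -0.22 ± 0.20 (SE), adjusted p = 0.435, the smallest of the chromosome structure genes.

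MKI67, which codes for the proliferation antigen Ki-67, was called lower with fulvestrant at both doses and with SAR439859 at 300 nM. Each of these 3 calls was lost on leaving out at least 1 single library of its comparison. MKI67 had 46.7, 37.3 and 37.6 TPM with 30 nM fulvestrant and 42.3, 41.1 and 35.3 with 300 nM, and 52.6, 35.3 and 39.7 TPM with 30 nM SAR439859 and 48.8, 39.02 and 36.6 with 300 nM. The hybrids gave MKI67 levels of 46.6, 49.9 and 51.7 TPM with 30 nM GDC-SAR and 45.1, 49.9 and 41.5 with 300 nM, and 45.8, 48.4 and 40.03 TPM with 30 nM AZD-SAR and 43.1, 55.6 and 36.7 with 300 nM. The parents gave MKI67 levels of 84.1, 62.5 and 53.9 TPM with 30 nM GDC-0810 and 64.5, 55.1 and 51.3 with 300 nM, and 56.1, 51.2 and 59.3 TPM with 30 nM AZD9496 and 50.7, 47.4 and 42.8 with 300 nM. In DMSO, MKI67 had 59.7, 55.4 and 53.3 TPM, so that 28 of the 36 ligand libraries lay below all 3 DMSO libraries and 3 above them. GDC-0810 at 30 nM held the highest values. MKI67 differed on average by -0.25 ± 0.12 (SE), adjusted p = 0.104, and rescaling gave -0.31 with an adjusted p of 0.0205. Differences of MKI67 between ligands passed the F test (adjusted p = 0.00185).

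FOXM1, a transcription factor that drives many mitotic genes, separated the ligands with little spread between libraries. FOXM1 had 55.1, 55.1 and 57.6 TPM with 30 nM fulvestrant and 58.3, 44.8 and 57.2 with 300 nM, and 63.96, 50.1 and 57.6 TPM with 30 nM SAR439859 and 48.8, 47.1 and 49.8 with 300 nM. The hybrids gave FOXM1 levels of 54.1, 52.4 and 52.7 TPM with 30 nM GDC-SAR and 54.3, 51.4 and 53.9 with 300 nM, and 50.7, 59.7 and 57.5 TPM with 30 nM AZD-SAR and 39.4, 47.2 and 57.2 with 300 nM. The parents gave FOXM1 levels of 64.5, 67.4 and 71.6 TPM with 30 nM GDC-0810 and 55.03, 66.9 and 70.7 with 300 nM, and 83.6, 86.9 and 90.8 TPM with 30 nM AZD9496 and 81.2, 88.3 and 74.7 with 300 nM. In DMSO, FOXM1 had 94.98, 98.9 and 97.9 TPM, so that 36 of the 36 ligand libraries lay below all 3 DMSO libraries. As deposited, the AZD9496 libraries lay closest to DMSO, GDC-0810 came next, and the other ligands averaged lower. The rescaled difference of AZD9496 from GDC-0810 over both doses was 0.19 (adjusted p = 0.0554). FOXM1 differed on average by -0.70 ± 0.08 (SE), adjusted p = 1.74e-07. As deposited, it was called with each ligand at both doses other than AZD9496, and its F test across ligands had the smallest adjusted p of the 57 genes (2.74e-07). After rescaling, FOXM1 was called lower in 12 of the 12 ligand and dose groups, those of AZD9496 included. MYBL2, whose protein works with FOXM1 on mitotic promoters, ran from 31.5 to 120.1 TPM with a median of 48.8 in the 36 ligand libraries, against 97.4, 104 and 108 TPM in the DMSO libraries, and the average fell by 0.88 (adjusted p = 9.72e-09). That average joins unlike groups. MYBL2 was called lower at both doses of SAR439859, fulvestrant and the 2 hybrids, from -1.54 with 300 nM SAR439859 to -1.01 with 30 nM AZD-SAR. It was not called with the parents, at -0.17 (adjusted p = 0.364) and -0.29 (adjusted p = 0.104) with 30 and 300 nM GDC-0810 and 0.04 (adjusted p = 0.881) and -0.20 (adjusted p = 0.401) with 30 and 300 nM AZD9496. The F test across ligands passed for MYBL2 (adjusted p = 6.24e-14).

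Other genes of mitosis, listed from general knowledge of the pathway, gave a median difference of -0.43 over the 81 that were tested. Of these, 44 were called lower and 3 higher in the average, against 13.3% of all symbols called lower and 17.5% called higher. In the inner kinetochore 7 of 10 were lower, led by CENPL at -1.03 (adjusted p = 5.71e-07), CENPQ at -0.93 (adjusted p = 5.45e-05) and CENPU at -0.90 (adjusted p = 0.00127). CENPL ran from 4.07 to 10.2 TPM with a median of 6.44 in the 36 ligand libraries, against 11.3, 15.5 and 15.9 TPM in the DMSO libraries, without overlap. In the outer kinetochore and checkpoint 9 of 16 were lower, led by SKA3 at -1.11 (adjusted p = 0.000147), KNTC1 at -1.07 (adjusted p = 0.0111) and SGOL1 at -0.93 (adjusted p = 8.38e-06). SKA3, of the complex that strengthens microtubule attachment, ran from 6.67 to 25.5 TPM with a median of 13.5 in the 36 ligand libraries, against 25.4, 33.5 and 35.6 TPM in the DMSO libraries, with 1 ligand library inside the DMSO range. Of the 4 centromere chromatin genes, 2 were lower, with MIS18A at -0.47 (adjusted p = 0.0117), OIP5 at -0.47 (adjusted p = 0.197) and HJURP at -0.41 (adjusted p = 0.00048). MIS18A, which helps load CENPA, ran from 7.01 to 16.5 TPM with a median of 12.4 in the 36 ligand libraries, against 14.9, 16.97 and 18.9 TPM in the DMSO libraries, and the groups overlapped.

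Of 4 further kinesins, 2 were lower, with KIFC1 at -0.86 (adjusted p = 1.56e-06), KIF22 at -0.75 (adjusted p = 0.00166) and KIF18A at -0.39 (adjusted p = 0.267). KIFC1, a motor that draws spindle poles together, ran from 4.55 to 14.05 TPM with a median of 6.61 in the 36 ligand libraries, against 12.7, 13.9 and 14.6 TPM in the DMSO libraries, and 1 ligand library lay inside the DMSO range. Of 9 further spindle genes 6 were lower, led by CDCA5 at -1.43 (adjusted p = 1.49e-05), CKAP2L at -1.07 (adjusted p = 0.000878) and SPAG5 at -1.01 (adjusted p = 0.000308). CDCA5 (sororin), which protects cohesin on replicated chromosomes, ran from 5.28 to 43.3 TPM with a median of 15.8 in the 36 ligand libraries, against 43.6, 45.3 and 52.9 TPM in the DMSO libraries, without overlap. Of 9 condensin and cohesin genes 5 were lower, led by NCAPG2 at -0.73 (adjusted p = 2.98e-05), NCAPH2 at -0.64 (adjusted p = 0.0188) and SMC3 at -0.38 (adjusted p = 0.0155). NCAPG2, a condensin subunit, ran from 4.06 to 11.3 TPM with a median of 6.35 in the 36 ligand libraries, against 11.2, 11.3 and 12.4 TPM in the DMSO libraries, and 1 ligand library lay inside the DMSO range.

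Among 14 subunits and regulators of the anaphase-promoting complex, 5 were lower and 1 higher. The subunit that was higher, ANAPC11, ran from 142 to 301 TPM with a median of 209 in the 36 ligand libraries, against 84.001, 92.97 and 129.7 TPM in the DMSO libraries, so that all 36 ligand libraries lay above DMSO, and it rose by 1.0025 (adjusted p = 3.37e-06). CDC26, a small subunit, stood at -0.82 (adjusted p = 0.00332) and FBXO5, an inhibitor of the complex, at -0.82 (adjusted p = 0.00147), both called lower. Among 5 genes of mitotic entry control, 2 were lower. PKMYT1, a kinase that holds CDK1 inactive, ran from 4.55 to 55.3 TPM with a median of 19.3 in the 36 ligand libraries, against 65.4, 73.3 and 82.8 TPM in the DMSO libraries, without overlap, and fell by 1.75 (adjusted p = 6.69e-07). MASTL, the Greatwall kinase that protects CDK1 substrates, stood at -1.22 (adjusted p = 1.87e-10), and WEE1, another kinase that holds CDK1 inactive, stood at 0.25 (adjusted p = 0.354) and was not called. Among 10 genes of mitotic gene transcription, 6 were lower and 2 higher. RBL2 (p130), a subunit of the repressive DREAM complex, ran from 18.4 to 50.5 TPM with a median of 30.8 in the 36 ligand libraries, against 11.9, 12.1 and 13.5 TPM in the DMSO libraries, with every ligand library above DMSO, and rose by 1.19 (adjusted p = 2.35e-05). LIN37, a further DREAM subunit named after its value was seen, was the other gene called higher, at 0.40 (adjusted p = 0.0245). RBL1 (p107) stood at -0.89 (adjusted p = 6.41e-06) and was called lower, while LIN54, the subunit that binds the CHR element, stood at -0.16 (adjusted p = 0.3198) and was not called.

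Genes of the G1/S transition and of DNA replication, read for comparison, had 31 of 34 called lower and a median difference of -1.23, against -0.45 for the 57 mitosis genes. The largest decreases there were those of CDT1 at -1.94 (adjusted p = 6.43e-09), GINS4 at -1.91 (adjusted p = 3.45e-05) and CCNE2 at -1.88 (adjusted p = 1.14e-07). CDT1, which loads the replicative helicase, ran from 2.53 to 15.3 TPM with a median of 4.33 in the 36 ligand libraries, against 17.1, 25.2 and 27.2 TPM in the DMSO libraries, without overlap. CCND1 (cyclin D1), a known target of the estrogen receptor, ran from 62.2 to 235 TPM with a median of 103 in the 36 ligand libraries, against 231, 260.4 and 309 TPM in the DMSO libraries. ESR1, the gene of the estrogen receptor itself, ran from 250.1 to 568 TPM with a median of 384 in the 36 ligand libraries, against 409, 439 and 459 TPM in the DMSO libraries, and the ranges overlapped.

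The hybrids let the side chain be changed while the scaffold stays the same, at matched doses, and 7 pairs of ligands were compared over both doses. On the AZD9496 scaffold, the SAR439859 side chain went with lower levels of mitosis genes. AZD-SAR against AZD9496 gave 22 of 57 lower and 0 higher, against 12% of all symbols called lower. The largest of these differences were CDK1 at -1.08, AURKB at -0.99, MAD2L1 at -0.95, BUB1B at -0.94, TACC3 at -0.93, SMC2 at -0.82, CDC25A at -0.78 and SPC24 at -0.71. Their adjusted p-values with limma ran from 7.27e-05 for TACC3 to 0.0328 for SPC24. The call of SPC24 was lost without 7 of the 12 libraries in turn (highest adjusted p 0.1301) and after rescaling, and that of MAD2L1 was lost without AZD9496 300 nM replicate 2 (0.0554) or AZD-SAR 300 nM replicate 2 (0.0646). TACC3 had 17.2, 17.1 and 12.2 TPM at 30 nM and 10.5, 14.02 and 11.2 at 300 nM AZD-SAR, against 31.6, 23.4 and 25.6 TPM at 30 nM and 27.1, 28.7 and 23.7 at 300 nM AZD9496. The AZD-SAR libraries of TACC3 lay below the AZD9496 libraries of their dose, and the difference had a 95% interval of -1.23 to -0.62. FOXM1 fell by 0.70 with the smallest adjusted p among the 57 genes (4.47e-07), and its libraries did not overlap at either dose. At the single doses 2 genes were lower at 30 nM (background 1.51%) and 14 at 300 nM (background 6.4%), and neither dose had a gene called higher. The count at 300 nM was 5 to 16 without single libraries, 5 without AZD9496 replicate 2 or AZD-SAR replicate 1 and 8 without AZD-SAR replicate 2, and it was 0 at each dose with only the libraries compared in the fit. All tested symbols had a median difference of -0.08 over both doses, and after rescaling 18 genes were lower.

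On the GDC-0810 scaffold, GDC-SAR against GDC-0810 gave 4 of 57 lower and 0 higher, against 1.85% of all symbols called lower. The 4 genes were CENPM at -0.81 (95% interval -1.29 to -0.34, adjusted p = 0.0434), CDC25A at -0.81 (95% interval -1.11 to -0.52, adjusted p = 0.000559), SPC25 at -0.48 (95% interval -0.75 to -0.21, adjusted p = 0.0335) and FOXM1 at -0.30 (95% interval -0.47 to -0.14, adjusted p = 0.0282). CDC25A had 1.26, 1.23 and 1.85 TPM at 30 nM and 0.959, 1.06 and 1.08 at 300 nM GDC-SAR, against 2.86, 3.14 and 2.85 TPM at 30 nM and 3.75, 2.79 and 2.21 at 300 nM GDC-0810. The call of CDC25A held without any 1 library, with adjusted p-values up to 0.00301, but not with a pseudocount of 0.1 (adjusted p = 0.0506). The call of CENPM was lost without any 1 of 10 of the 12 libraries, that of SPC25 without any 1 of 8 and that of FOXM1 without any 1 of 7. At 30 nM no gene of the 57 was called (background 0.701%), with 11 lower and 1 higher at an unadjusted p below 0.05, and at 300 nM 1 was lower (background 0.687%), CDC25A at -0.93 (95% interval -1.35 to -0.51, adjusted p = 0.0155). The background at 30 nM is a share of calls, and none is given for the counts at the unadjusted p. For both doses the count was 1 to 4 without single libraries, with 1 left without GDC-0810 30 nM replicate 2 or GDC-0810 300 nM replicate 3 and 2 without GDC-0810 30 nM replicate 3 or GDC-0810 300 nM replicates 1 or 2. It was 2 without the filter on low values and 9 after rescaling.

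**Figure D4:**
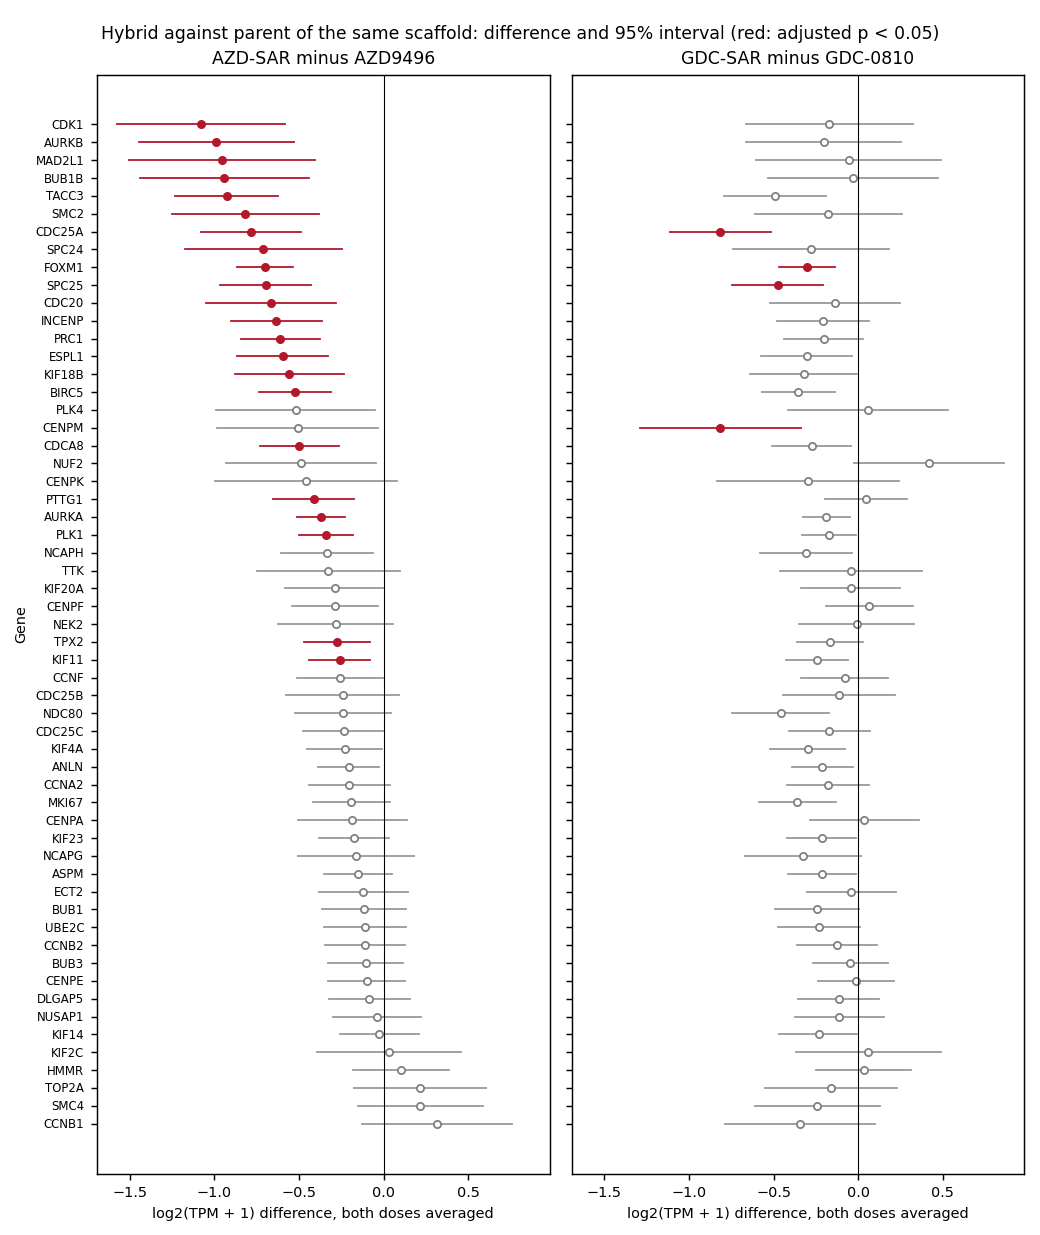
Difference between hybrid and parent of the same scaffold, averaged over both doses (log2(TPM + 1), points, with 95% intervals), for the 57 mitosis and kinetochore genes, AZD-SAR minus AZD9496 on the left and GDC-SAR minus GDC-0810 on the right, red where the adjusted p was below 0.05. There are 22 red genes on the left and 4 on the right, and all of them lie below 0.

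The difference between these side chain effects, tested as an interaction, gave no call among the 57 genes (background 0.0208% of all symbols in either direction). At an unadjusted p below 0.05 in limma, 11 were lower and 1 higher on the AZD9496 scaffold, and the lowest adjusted p was that of FOXM1, -0.40 (95% interval -0.63 to -0.16, adjusted p = 0.107). The median interaction was -0.13 over the 57 genes and -0.11 over all tested symbols, and -0.01 over the 57 genes after rescaling. No share of all symbols is given at that unadjusted p, so the 11 and the 1 are not read as a result about the mitosis genes. For CDK1 the interaction was -0.91 (95% interval -1.61 to -0.21, adjusted p = 0.1695), and for AURKB -0.78 (95% interval -1.43 to -0.13, adjusted p = 0.199). A p that misses the threshold does not show that the side chain acts alike on both scaffolds. The count was 2 without AZD-SAR 300 nM replicate 3.

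Few of these genes were called between ligands that carry the same side chain on different scaffolds. GDC-SAR against SAR439859 gave 1 gene higher and 0 lower (background 0.194% higher), the gene being NUF2 at 0.93 (95% interval 0.49 to 1.37, adjusted p = 0.04995). NUF2 had 32.02, 26.7 and 24.99 TPM at 30 nM and 23.2, 18.3 and 30.3 at 300 nM GDC-SAR, against 6.58, 12.1 and 10.5 TPM at 30 nM and 20.3, 13.5 and 19.5 at 300 nM SAR439859. This call lay at the threshold and was lost without 11 of the 12 libraries in turn, without the filter on low values and with 300 nM alone. The count of calls was 0 without any 1 of 10 of the libraries, 2 without SAR439859 30 nM replicate 1 and 3 without SAR439859 30 nM replicate 2. AZD-SAR against SAR439859 gave no call (background 0.0555%), with 11 genes higher and 0 lower at an unadjusted p below 0.05 and HMMR nearest to the threshold at 0.50 (95% interval 0.22 to 0.78, adjusted p = 0.129). Without SAR439859 30 nM replicate 1 or 2 the count was 1. AZD-SAR against GDC-SAR gave no call among the 57 (background 0%), with 3 lower and 0 higher at an unadjusted p below 0.05. The interval of CDK1 was -0.32 to 0.67 for GDC-SAR minus SAR439859, -0.42 to 0.56 for AZD-SAR minus SAR439859 and -0.60 to 0.39 for AZD-SAR minus GDC-SAR. For FOXM1 these intervals were -0.15 to 0.18, -0.20 to 0.13 and -0.21 to 0.12. SAR439859 against fulvestrant gave no call (background 0.00694%), with 5 lower and 0 higher at an unadjusted p below 0.05, and CDK1 at -0.40 (95% interval -0.90 to 0.09, adjusted p = 0.771). The backgrounds in this paragraph are shares of calls. No share of all symbols is given at the unadjusted p, so the counts at it are not read as results about the mitosis genes.

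Between the parent molecules the calls changed with the scaling. AZD9496 against GDC-0810 gave 6 genes higher and 0 lower as deposited (background 14.8% higher and 1.56% lower), where the median symbol was 0.13. The 6 are 10.5% of the 57, a share below that of all symbols, so the count is not a result about the mitosis genes. The 6 were CDK1 at 0.80, SMC2 at 0.71, PTTG1 at 0.41, INCENP at 0.39, PRC1 at 0.35 and FOXM1 at 0.35, with adjusted p-values from 0.00516 for FOXM1 to 0.0429 for INCENP. After rescaling none of the 6 passed, with FOXM1 nearest at an adjusted p of 0.0554, and 4 genes were called lower with AZD9496. These were CCNB1 at -0.76, TOP2A at -0.66, SMC4 at -0.61 and MKI67 at -0.42, with adjusted p-values from 0.0167 to 0.0416. As deposited, the count of calls was 2 without GDC-0810 replicate 1 of either dose or AZD9496 replicate 2 of either dose, 3 without GDC-0810 300 nM replicate 2, and 14 (12 higher, 2 lower) without GDC-0810 300 nM replicate 3. It was 2 without the filter on low values.

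No gene of the 57 was called between 300 nM and 30 nM, for any of the 6 ligands or over all of them together (background 0% in each). Over all ligands 10 genes were lower and 0 higher at 300 nM at an unadjusted p below 0.05 in limma. No share of all symbols is given at that p, so counts at it are not read as a dose result. The median difference was -0.07 over the 57 genes and -0.05 over all tested symbols, and -0.02 over the 57 genes after rescaling. As deposited, the 57 differences over all ligands ran from -0.27 to 0.07, with CDK1 at 0.00 (95% interval -0.29 to 0.29, adjusted p = 0.9995) and FOXM1 at -0.12 (95% interval -0.21 to -0.02, adjusted p = 0.783). Within single ligands 0 to 6 genes were lower and 0 or 1 higher at that unadjusted p. The nearest to a call within 1 ligand was KIF18B with SAR439859, at -1.13 (95% interval -1.59 to -0.68, adjusted p = 0.0539). For SAR439859 the count was 5 without its 30 nM replicate 2 and 1 with a pseudocount of 0.1.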

How the data were processed

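The authors deposited 1 table of TPM values (transcripts relative to gene length and to the total of the library) by gene symbol for 39 libraries, made from stranded NuGEN libraries of total RNA. The submitters' processing notes name STAR and GRCh38. Which versions, counting tool, strand setting and annotation were used is not given in the sources used here. TPM holds no depth, so no counting interval is given.

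Values were log2(TPM + 1). The 14404 symbols that averaged 1 TPM or more were fitted in 1 model with a mean per group (limma 3.58.1, R 4.3.3, 26 residual degrees of freedom, intensity trend) and adjusted by Benjamini-Hochberg within each of 33 comparisons. Differences are first group minus second, with 95% intervals. The fit was tested on simulated data. Groups come from the labels, and replicates are numbered by accession order, which does not pair libraries by design.

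The members, the other gene lists and the tests were chosen with earlier results of these data known. Every library is given for CDK1, CCNB1, AURKB, PLK1, MKI67, TOP2A and the gene of each role with the largest average difference, beside which the gene with the smallest is named. For other lists the 3 largest are named, the first with the range of its ligand libraries. Between ligands up to 8 called genes are named. Other genes were added after their values were seen. Alternatives were a pseudocount of 0.1, no filter (39392 symbols), TPM divided by median-of-ratios factors, a fit on the compared libraries alone, leaving out each library in turn, and, added after seeing the data, the place in the accession order as a block. Promoters are RefSeq sequence, and positions of genes come from GENCODE v29. No pair of libraries held identical values.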

Additional observations from a re-analysis of the deposited data

How the results depend on the processing

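Counts of mitosis and kinetochore genes called in each of the 33 comparisons were recomputed under each alternative, and no named gene changed the direction of a called difference. With median-of-ratios scaling the count was 15 for AZD9496 at 30 nM and 17 at 300 nM against DMSO, 2 for GDC-SAR against GDC-0810 at 30 nM and 9 over both doses, and 2 for GDC-SAR against SAR439859. With a pseudocount of 0.1 it was 3 for AZD9496 at 30 nM against DMSO, 0 for GDC-SAR against GDC-0810 at 300 nM, 1 for AZD-SAR against AZD9496 at 30 nM and 1 for SAR439859 at 300 against 30 nM. Without the filter on low values it was 4 for AZD9496 at 300 nM against DMSO, 2 for GDC-SAR against GDC-0810 over both doses, 0 for GDC-SAR against SAR439859 and 2 for AZD9496 against GDC-0810. With only the libraries compared in the fit, which leaves fewer libraries to estimate the spread, it was 11 for SAR439859 at 30 nM and 8 for AZD9496 at 30 nM against DMSO, and 0 for GDC-SAR against GDC-0810 at 300 nM, for AZD-SAR against AZD9496 at 30 nM and at 300 nM, and for GDC-SAR against SAR439859. The last was 0 also at 300 nM alone, a setting chosen after seeing the data. Leaving out each library gave 21 to 25 for fulvestrant at 30 nM, 8 to 12 for GDC-0810 at 30 nM, 7 to 14 for GDC-0810 at 300 nM, 2 to 4 for AZD9496 at 30 nM and 3 to 7 for AZD9496 at 300 nM against DMSO. Between ligands it gave 0 to 1 for GDC-SAR against GDC-0810 at 30 nM and 0 to 1 at 300 nM, 1 to 4 over both doses, 5 to 16 for AZD-SAR against AZD9496 at 300 nM, 0 to 3 for GDC-SAR and 0 to 1 for AZD-SAR against SAR439859, 2 to 14 for AZD9496 against GDC-0810, 0 to 5 for SAR439859 at 300 against 30 nM, and 0 to 2 for the interaction. The cause of these changes was not tested beyond what each alternative leaves out. The remaining counts stayed within 1.5 times, a measure that compares totals only. For AZD9496 against GDC-0810, 6 higher and 0 lower as deposited became 0 higher and 4 lower after rescaling, with different genes. The labels carry no replicate numbers that pair libraries, yet libraries in the same place of the listing order of their groups deviated together weakly. Of the 39 libraries 29 were most like their own place, though 65 of 234 pairs had a correlation over 0.1. The median correlation of deviations was 0.053 in the same place, with a range from -0.157 to 0.294, and -0.028 in other places. A replicate block by that order, chosen after seeing the data, kept every call in each of the 32 comparisons with a direction. It gave 9 for AZD9496 at 30 nM and 15 at 300 nM against DMSO, 1 for GDC-SAR against GDC-0810 at 30 nM and 7 over both doses, 3 for GDC-SAR and 1 for AZD-SAR against SAR439859, 12 (8 higher, 4 lower) for AZD9496 against GDC-0810, 1 for SAR439859 at 300 against 30 nM and 1 for the interaction. With the block CCNB1 was called higher with GDC-0810 at 30 nM (0.70, adjusted p = 0.0118) and 300 nM (0.72, adjusted p = 0.00996) and with AZD-SAR at 300 nM (0.56, adjusted p = 0.0341), and MKI67 lower in the average (adjusted p = 0.0476). TPM holds no depth, so what depth limits for a gene of a few TPM, such as CDC25A, is unknown.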
